A study of Mus musculus with 10 samples.

Results

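Expression of 8 CC chemokine and chemokine receptor genes was examined in the neural retinas of BALB/c mice, an inbred albino strain, at an age of 2 months. The genes are the ligands *Ccl2*, *Ccl3*, *Ccl4*, *Ccl5*, *Ccl7* and *Ccl12* and the receptors *Ccr1* and *Ccr2*, and they were taken by name from a table of 54532 genes, in which all 8 were found. Per the labels, all mice were first kept in the dark for 12 hr. For 5 retinas the mice then spent 1 day under normal light of 200 lux (NL, numbered 1, 4, 5, 7 and 8), and for 5 retinas they spent 1 day under high-intensity light of 15000 lux (LD, numbered 1, 4, 6, 7 and 8). No transgene or mutant is part of this comparison. The paper calls the retinas biological replicates, but the labels tie no retina to an animal, so the p-values measure the spread between these samples.

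CC chemokines are small secreted proteins named for a pair of adjacent cysteines near the start of the mature chain, and they draw leukocytes along a gradient by binding G protein-coupled receptors. The products of *Ccl2*, *Ccl7* and *Ccl12* act on CCR2, the receptor of inflammatory monocytes, and those of *Ccl3*, *Ccl4* and *Ccl5* include ligands of CCR1. In the injured retina such ligands are known from microglia, infiltrating monocytes and Müller glia, and the loss of photoreceptors after bright light is known to be accompanied by microglial activation.

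The 6 ligand genes lie on chromosome 11 (GRCm38) in 2 groups, and the 2 receptor genes lie in a cluster of receptor genes on chromosome 9. The stretch of coding sequence around the shared cysteine pair is shown for each ligand because it is the feature that defines the family. Each line gives 60 bases of the coding strand from GENCODE M21 transcripts, 5′ to 3′, with the 2 adjacent cysteine codons in capitals. These codons lie in exon 2 of 3 in all 6 genes.
*Ccl2* (codons at chr11:82036506-82036511, plus strand): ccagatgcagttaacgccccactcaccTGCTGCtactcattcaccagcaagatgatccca
*Ccl7* (codons at chr11:82046538-82046543, plus strand): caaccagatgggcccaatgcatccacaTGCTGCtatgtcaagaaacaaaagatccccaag
*Ccl12* (codons at chr11:82102634-82102639, plus strand): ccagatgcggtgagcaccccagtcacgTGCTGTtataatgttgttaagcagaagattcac
*Ccl3* (codons at chr11:83648652-83648657, minus strand): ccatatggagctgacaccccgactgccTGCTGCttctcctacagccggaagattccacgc
*Ccl4* (codons at chr11:83663482-83663487, plus strand): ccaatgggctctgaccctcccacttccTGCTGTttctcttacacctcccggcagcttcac
*Ccl5* (codons at chr11:83529242-83529247, minus strand): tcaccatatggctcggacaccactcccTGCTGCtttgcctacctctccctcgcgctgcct
Over the aligned coding sequence, *Ccl2* and *Ccl7* were 72.4% identical, *Ccl3* and *Ccl4* 71.4%, and *Ccl2* and *Ccl12* 69.3%. The longest run of bases that any of these 3 pairs shared was 23, in *Ccl2* and *Ccl7*, against reads of 150 bases.

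The deposited values are FPKM, which relate the fragments of a gene to its length and to the library size, and read numbers were worked back from them. Depth ranged from 21343389 to 26832535 reads in the NL group and from 18965090 to 23378090 reads in the LD group. Retina identity was checked on 8 rod genes, which were at 8716 to 10606 summed FPKM under NL and 1335 to 2650 after LD, all 8 of them called lower. Among pairs of retinas of one group, NL-5 and NL-7, LD-1 and LD-7, and LD-4 and LD-6 were closer than the others (chi-square per gene 2.65 to 3.65, against 12.2 to 43.4), so the calls were also made with these 3 pairs averaged. LD was compared with NL by limma on log2(FPKM + 0.1) over the 24508 genes that reached 0.1 FPKM in 5 or more retinas. A gene was called when its adjusted p (Benjamini-Hochberg) was under 0.01 and its fold change above 2. Fold changes on this scale understate the change of genes near 0 FPKM. Of the 24508 genes tested, 1595 were called, 1013 of them higher after LD and the rest, the 8 rod genes among them, lower.

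After LD, 5 of the 6 ligand genes rose, *Ccl2*, *Ccl7*, *Ccl12*, *Ccl3* and *Ccl4*, and *Ccl5* did not pass the test. Of all genes tested, 4.13% were called higher. *Ccl2* and *Ccl12* reached means of 16.03 and 16.8 FPKM, while *Ccl3*, *Ccl7* and *Ccl4* reached 2.10 to 4.57 FPKM. The receptor genes *Ccr1* and *Ccr2* stayed under 1 FPKM in all 10 retinas. In 7 of the 8 genes, all but *Ccl5*, the lowest LD value exceeded the highest NL value (exact permutation test, two-sided p = 0.00794 each, the smallest possible with 5 retinas a group). Here and below, the exact tests count the 10 retinas as separate samples. They were not repeated with the close pairs averaged, where the smallest possible p is larger. Such a lack of overlap with LD higher was found in 8.32% of all genes above 0 FPKM. The 5 ligands passed the filter on low values only with their LD retinas, since 3 NL retinas reached 0.1 FPKM for *Ccl2* and *Ccl12*, 4 for *Ccl3* and 1 for *Ccl7* and *Ccl4*, so their count is a description. With no filter, where 2.71% of genes were called higher, these 5 and *Ccr1* were called among the 8 genes. With the closest pairs of retinas averaged, which leaves 4 NL and 3 LD samples, the number of members called was again 5. With a pseudocount of 1 in place of 0.1, the 5 ligands were also called, but their log2 fold changes shrank to 3.75 for *Ccl2*, 3.50 for *Ccl12*, 2.31 for *Ccl3*, 2.19 for *Ccl7* and 1.56 for *Ccl4*.

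**Figure D1:**
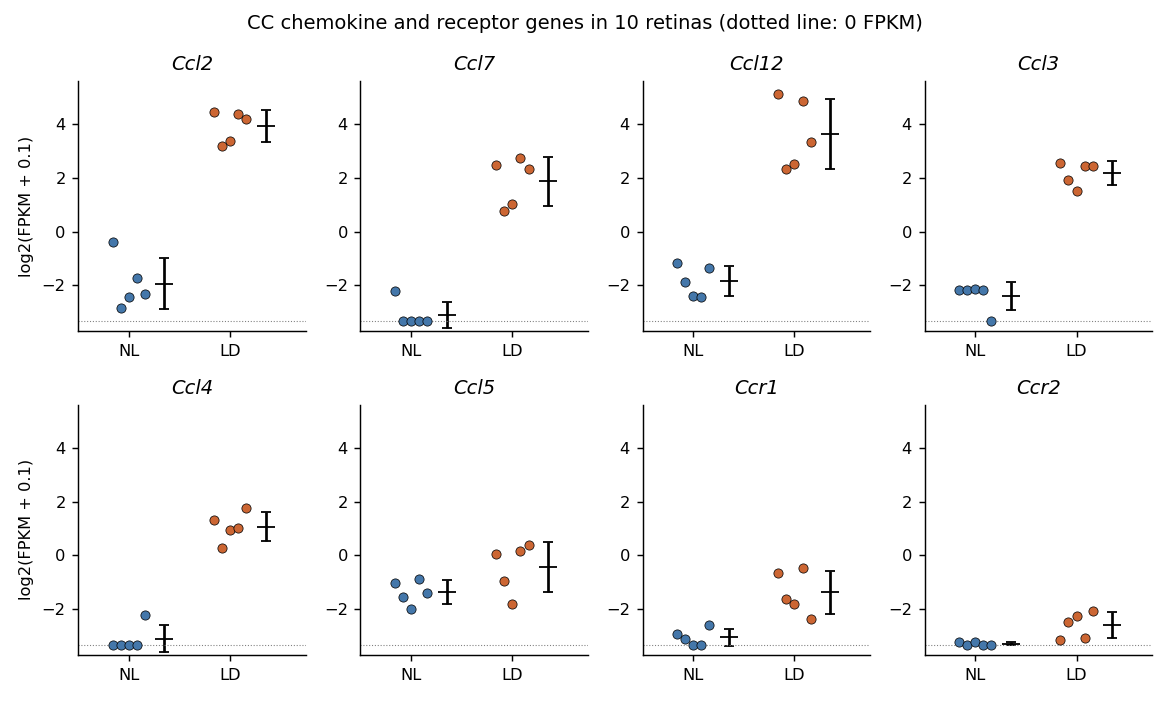
The 8 genes in each of the 10 retinas on a log2(FPKM + 0.1) axis, where points are retinas, bars beside them are the mean and SD of 5 retinas, and the dotted line is 0 FPKM. NL and LD points are apart in 7 panels and overlap for *Ccl5*, and the LD points of *Ccl12* (4.87 to 34.8 FPKM) spread over a wider range than those of *Ccl2* (9.10 to 21.8 FPKM).

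*Ccl2* (ENSMUSG00000035385, chr11:82035571-82037453, plus strand) encodes a main attractant of monocytes. In NL-1, NL-4, NL-5, NL-7 and NL-8 it was at 0.657, 0.0414, 0.0866, 0.207 and 0.102 FPKM, which are 16, 1, 2, 5 and 3 reads. In LD-1, LD-4, LD-6, LD-7 and LD-8 it was at 21.8, 9.10, 10.3, 20.5 and 18.4 FPKM, or 606, 210, 263, 532 and 465 reads. NL-1 was the highest NL retina and still lay far below LD-4, the lowest LD retina. The log2 fold change was 5.85 (standard error 0.44, limma adjusted p = 6.05e-06), the third largest increase of the genes tested. Scaled to library size, the summed LD reads were 75.4 times the summed NL reads (exact 95% interval 51.7 to 115, counting error only). Of the 27 NL reads 16 came from NL-1, and without that retina, left out after seeing the data, the ratio was 149. A predicted gene, *Gm17268*, lies across *Ccl2* on the opposite strand and had no reads.

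*Ccl7* (ENSMUSG00000035373, chr11:82045712-82047525, plus strand), the next gene along the chromosome, encodes another monocyte attractant. It had 2 reads in NL-1 and none in the other NL retinas. The 5 LD retinas, in the order of their numbers, had 106, 26, 35, 120 and 88 reads, or 5.43, 1.60, 1.95, 6.58 and 4.94 FPKM. LD-4 and LD-6 were thus the low LD retinas, as they were for *Ccl2*. The log2 fold change was 4.97 (standard error 0.42, limma adjusted p = 1.4e-05), and the ratio of summed reads was 184 with a wide interval of 50.6 to 1525, because only 2 NL reads stand behind it. Without NL-1, left out after seeing the data, the other NL retinas held 0 reads. Against a floor of 3 reads over the group, the ratio for *Ccl7* was then 98.8, given without an interval. The interval over all retinas reaches lower, to 50.6.

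*Ccl12* (ENSMUSG00000035352, chr11:82101845-82103400, plus strand) encodes a CCR2 ligand of the mouse. The LD values were 34.8, 4.87, 5.58, 28.9 and 10.04 FPKM, from 456, 53, 67, 353 and 120 reads. These values span 7.15-fold, against 2.40-fold for *Ccl2* and 2.11-fold for *Ccl3*, so that LD-1 and LD-7 set most of the LD mean. In the NL retinas *Ccl12* had 1 to 4 reads. The log2 fold change of 5.46 (standard error 0.56) had an adjusted p of 5.34e-05 in limma, but 0.0112 with limma-voom on the recovered reads, which is past 0.01 (that fit called 4.44% of genes higher). The groups did not overlap, and the ratio of summed reads was 85.8 (interval 48.9 to 167). That interval covers counting error only and leaves out the spread between retinas, so it does not bear on that p.

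*Ccl3* (ENSMUSG00000000982, chr11:83647844-83649355, minus strand) and *Ccl4* (ENSMUSG00000018930, chr11:83662584-83664683, plus strand) encode macrophage inflammatory proteins and lie next to each other in the second group of genes. For *Ccl3* the LD retinas had 108, 57, 47, 94 and 90 reads, or 5.78, 3.67, 2.74, 5.39 and 5.28 FPKM, the narrowest spread of the 8 genes. Its ratio of summed reads was 48.6 (interval 24.4 to 113). For *Ccl4* the LD retinas had 38, 15, 27, 29 and 48 reads, or 2.36, 1.12, 1.83, 1.93 and 3.27 FPKM. Here LD-8 rather than LD-1 or LD-7 was highest. *Ccl4* had 2 reads in NL-8 and none in the other NL retinas, and its log2 fold change was 4.16 (standard error 0.31, limma adjusted p = 6e-06).

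*Ccl5* (ENSMUSG00000035042, chr11:83525778-83530518, minus strand), whose product attracts T cells and monocytes, was the ligand that differed least between the groups. It was at 0.390, 0.245, 0.154, 0.442 and 0.283 FPKM in the NL retinas and at 0.940, 0.411, 0.186, 1.01 and 1.22 FPKM in the LD retinas. LD-6 lay below 4 of the 5 NL retinas and LD-4 below 1 of them. The log2 fold change was 0.93 (standard error 0.42, limma adjusted p = 0.131), and the exact permutation test gave p = 0.0873 (two-sided). The ratio of summed reads, 2.51 (interval 1.65 to 3.91), treats all reads of a group as one sample and leaves out the spread between retinas.

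*Ccr1* (ENSMUSG00000025804, chr9:123962124-123968692, minus strand) encodes a receptor for CCL3 and CCL5. The NL retinas had 2, 1, 0, 0 and 5 reads and the LD retinas 37, 13, 12, 40 and 6 reads, or 0.536, 0.226, 0.189, 0.620 and 0.0952 FPKM. LD-8 was the low LD retina, only 1 read above NL-8, although LD-8 was the highest retina for *Ccl4* and *Ccl5*. *Ccr1* was at or over 0.1 FPKM in 4 retinas and was not tested under the filter. Without a filter its log2 fold change was 1.67 (standard error 0.36, limma adjusted p = 0.00901), where 2.71% of genes were called higher. With limma-voom on genes of at least 10 reads in all, a choice made after seeing the data, it was 3.60 (adjusted p = 0.00832), with 4.12% called higher.

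*Ccr2* (ENSMUSG00000049103, chr9:124101950-124113557, plus strand), the receptor for CCL2, CCL7 and CCL12, had 1, 0, 1, 0 and 0 reads in the NL retinas. In the LD retinas it had 2, 11, 17, 3 and 21 reads, or 0.0121, 0.0803, 0.112, 0.0195 and 0.140 FPKM. The retinas with the fewest *Ccr2* reads, LD-1 and LD-7, were those with the most *Ccr1* reads. Over its length of 6760 bases these are very low levels, and neither fit called it: the adjusted p was 0.0485 in limma without a filter and 0.0243 with limma-voom. The ratio of summed reads was 26.5 (interval 6.99 to 224), and it was 42.7 without NL-1 and 43.2 without NL-5, which hold 1 read each.

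The LD retinas did not share one order for all of these genes. LD-1 and LD-7 were the highest pair for *Ccl2*, *Ccl7*, *Ccl12*, *Ccl3* and *Ccr1*, that is 5 of the 8 genes. LD-4 and LD-6 were the lowest pair for all 6 ligands. Among the 1013 genes called higher after LD, LD-1 and LD-7 were the highest pair in 25.6% and LD-4 and LD-6 the lowest pair in 13.7%. LD-1 with LD-7 and LD-4 with LD-6 are also close pairs over all genes, and the part of that likeness in these orders was not tested.

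**Figure D2:**
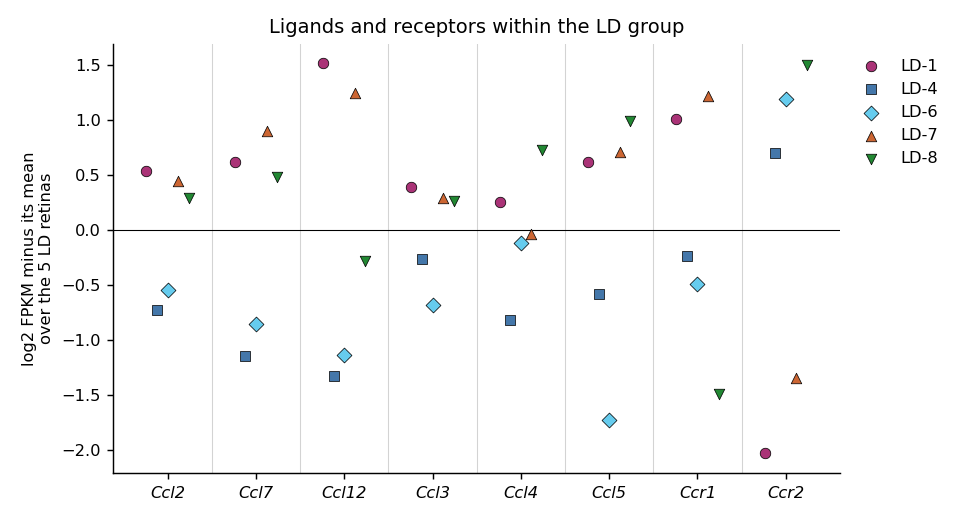
Each point is 1 LD retina, placed by its log2 FPKM minus the mean over the 5 LD retinas for that gene, for the 8 genes. LD-1 and LD-7 lie above 0 for *Ccl12* and *Ccr1* and below 0 for *Ccr2*, and LD-8 is highest for *Ccr2*, *Ccl4* and *Ccl5* and lowest for *Ccr1*.

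As a description over the 10 retinas, the deviations of each gene from its group means on the log2(FPKM + 0.1) scale were correlated, with the closest pairs and the library depth shared by all points. The Pearson r was 0.828 for *Ccl2* with *Ccl7*, 0.847 for *Ccl7* with *Ccl12* and 0.795 for *Ccl12* with *Ccr1*. It was −0.914 for *Ccr1* with *Ccr2*, on few reads. Across 12689 protein-coding genes, the gene most like *Ccl2* by this measure was *Amt* (r = 0.926), followed by *Smad5*, *Gla*, *Taf7* and *Ipp*. For *Ccl12* it was *Lrit1* (0.992), followed by *Doc2b*, *Ift57*, *Impg2* and *Rnf144b*. *Etnk1* (0.974), *Fgf2*, *Phactr2*, *Zdhhc21* and *Tubgcp5* came first for *Ccr1*, and *Nf2* (0.977), *Rhobtb2*, *Per2*, *Slc7a10* and *Tescl* for *Ccr2*. None of these genes is a chemokine or a chemokine receptor gene.

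FPKM is per length of gene, so the levels of the ligands were set against each other within a retina as far as these lengths hold. The lengths used were 1138 bases for *Ccl2*, 960 for *Ccl5* and 537 for *Ccl12*. Their longest coding transcripts in GENCODE M21 have 813, 532 and 537 bases. The shares and ratios below thus depend on the lengths used: in LD-1, *Ccl2* had 606 reads and *Ccl12* 456. The summed FPKM of the 6 ligands was 0.461 to 1.63 in the NL retinas and 71.2, 20.8, 22.6, 64.3 and 43.1 in LD-1, LD-4, LD-6, LD-7 and LD-8. The NL retinas held 8 to 32 ligand reads in all. In NL-1, which held the most, *Ccl2* had the largest share at 40.2%, and *Ccl5* had 23.8%. In NL-4, NL-5 and NL-7 the largest share was that of *Ccl5*, at 33.4 to 51.4%. In NL-8 *Ccl12* had 36.5% and *Ccl5* 35.7%. In LD retinas the share of *Ccl5* was 1.70 ± 0.753% (SD, n = 5), and *Ccl2* and *Ccl12* together made up the larger part, with shares of 38.9 ± 7.07% and 33.04 ± 12.8% (SD, n = 5). *Ccl3* made up 11.7 ± 3.87%, *Ccl7* 9.13 ± 1.67% and *Ccl4* 5.48 ± 2.35%. The composition differed between LD retinas: *Ccl2* was at 0.627 and 0.711 times the level of *Ccl12* in LD-1 and LD-7, and at 1.87, 1.85 and 1.83 times in LD-4, LD-6 and LD-8. The CCR2 ligands *Ccl2*, *Ccl7* and *Ccl12* together were at 6.84 and 6.72 times the level of *Ccl3*, *Ccl4* and *Ccl5* in LD-1 and LD-7, and at 2.99 to 3.75 times in the other LD retinas.

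**Figure D3:**
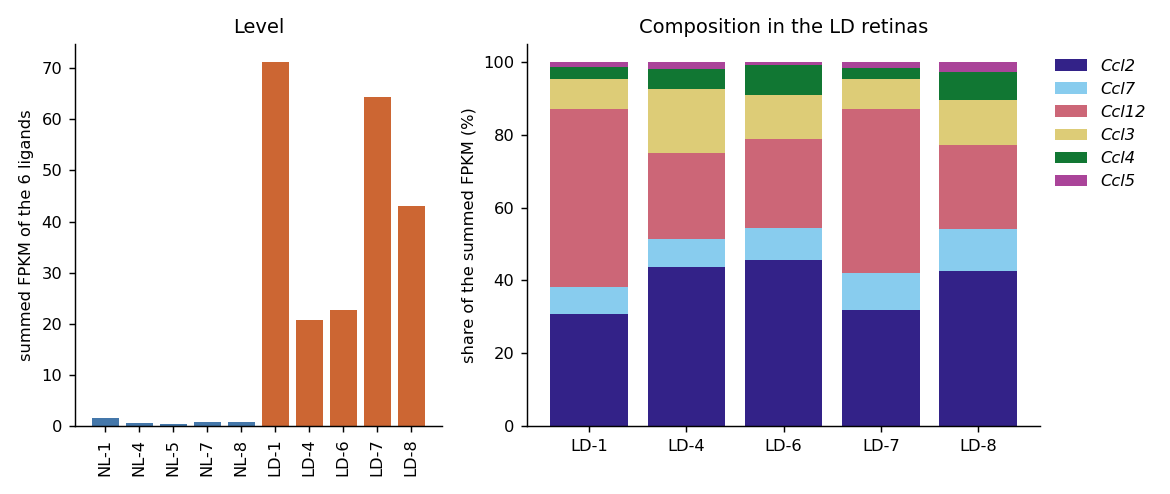
Left, summed FPKM of the 6 ligand genes in each retina, from 0.461 to 1.63 under NL and from 20.8 to 71.2 after LD. Right, the share of each ligand gene in that sum in percent for the 5 LD retinas, with *Ccl12* at 48.9 and 44.9% in LD-1 and LD-7 and at 23.3 to 24.7% in the others.

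The rest of the CC family was examined next. Of 18 other CC ligand genes, 15 had reads, 7 were tested and 1 was called, against 4.13% of all genes tested called higher. The called gene was *Ccl6*, a macrophage chemokine in the same group of genes as *Ccl3* and *Ccl4*. *Ccl6* had 9, 13, 1, 3 and 15 reads in the NL retinas and 34, 42, 29, 38 and 29 in the LD retinas, and its log2 fold change was 1.82 (standard error 0.35, limma adjusted p = 0.00316). The largest decrease in that list, −1.02 for *Ccl27b*, was not called (adjusted p = 0.443). The median log2 fold change of the 7 was 0.01, against −0.01 over all genes tested. The gene with the highest level among the other ligands, *Ccl27a*, had 9.36 ± 2.18 FPKM in the NL and 9.38 ± 1.90 FPKM in the LD retinas (SD, n = 5 per group), where reads of the overlapping *Il11ra1* cannot be told apart. *Ccl8* and *Ccl11* lie in the same group of genes as *Ccl2*, *Ccl7* and *Ccl12*. *Ccl8* had 0 reads in all NL retinas and 1, 0, 1, 1 and 2 reads in the LD retinas (exact permutation test, two-sided p = 0.0476), and it was not called without a filter (limma adjusted p = 0.0273). *Ccl11* had 1 read in each group, so no change was detectable at this depth. *Ccl27a*, *Ccl8* and *Ccl11* were chosen for mention after their values were seen.

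Of 13 other CC receptor genes, 10 had reads and 7 were tested, with log2 fold changes from −0.84 to 1.52 and a median of 0.13. At an unadjusted p under 0.05, 2 of the 7 were higher and 3 were lower. Against 4.13% of all genes tested, 2 were called higher, and none was called lower. Among these, *Ccrl2*, an atypical receptor that binds chemerin, rose from 0.101 ± 0.0518 FPKM under NL to 0.490 ± 0.221 FPKM (SD, n = 5 per group), by 1.52 on the log2 scale (standard error 0.30, limma adjusted p = 0.00358). Once the closest pairs were averaged, *Ccl6* and *Ccrl2* were at log2 fold changes of 1.58 and 1.58, with an adjusted p of 0.0297 and 0.0193 in limma, and were no longer called with 7 samples in place of 10.

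Genes that act downstream of chemokine receptors, most of which serve other leukocyte receptors too, were followed as a list of 16. All 16 were tested and 7 were called higher by limma, against 4.13% of all genes tested, and the median log2 fold change was 0.74. None was called lower, and none had a negative change at an unadjusted p under 0.05. With limma-voom on genes of at least 10 reads, 8 were called higher, against 4.12% of all genes in that fit, and none lower. Among the 7 were *Fgr*, *Vav1*, *Rac2*, *Rgs1*, *Dock2* and *Pik3r5*. *Fgr*, a Src-family kinase of myeloid cells, rose by the most, with 17, 2, 6, 2 and 22 reads under NL and 350, 110, 137, 306 and 200 after LD, which limma put at 3.65 on the log2 scale (standard error 0.37, adjusted p = 5.14e-05). *Vav1*, a guanine nucleotide exchange factor of blood cells, rose from 0.220 ± 0.0647 FPKM under NL to 1.30 ± 0.203 FPKM (SD, n = 5 per group). *Rgs1*, a regulator that ends G protein signalling, had 2 reads in the NL retinas together and 25 to 69 reads in each LD retina. The 7 called genes are mostly expressed in leukocytes, and the 9 others had log2 fold changes from −0.08 to 0.89. At an adjusted p under 0.05 with no minimum fold, 12 of the 16 were higher in limma and none was lower. Some of the 9 others thus rose as well, by less than the fold threshold.

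**Figure D4:**
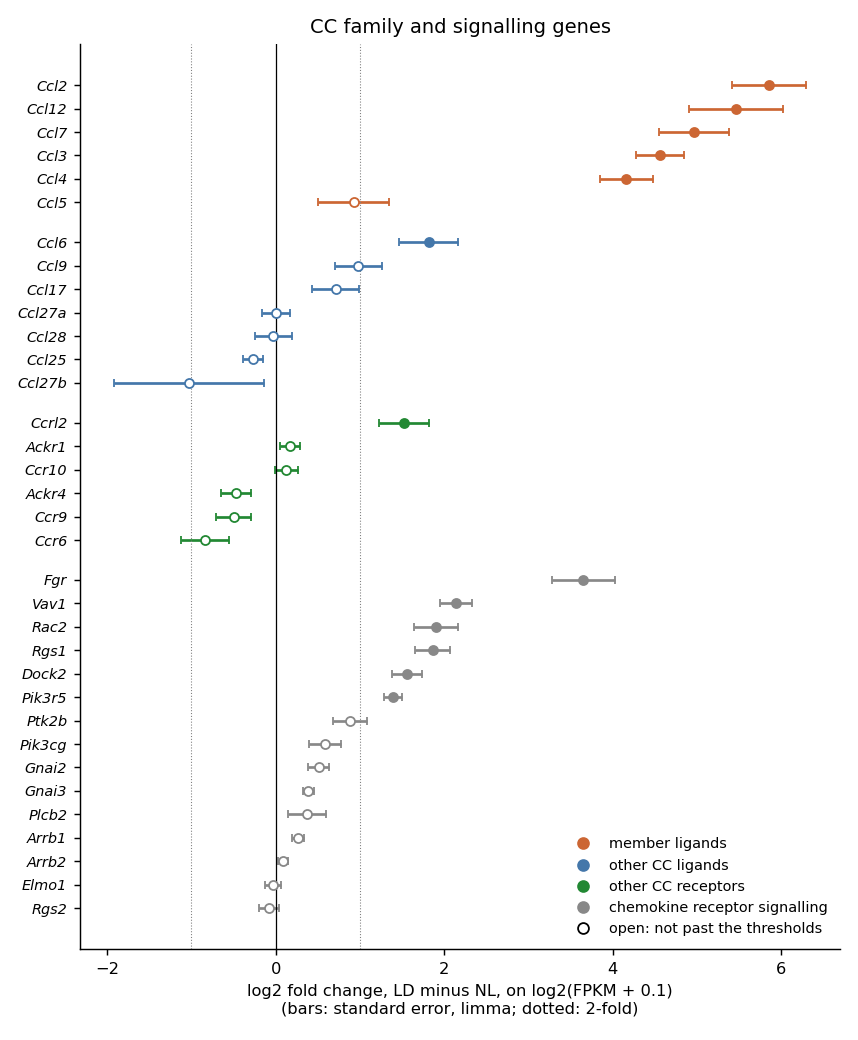
Log2 fold changes of LD minus NL with limma standard errors for the genes reported among the 6 ligands, the other CC ligands, the other CC receptors and the signalling list. Filled points passed both thresholds, and 5 of the ligands lie between 4.16 and 5.85, to the right of all other genes shown.

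The increase of the 5 ligands was compared with that of leukocyte genes in the same libraries. In bulk RNA, more cells of a type and more RNA per cell cannot be told apart. Of 10 pan-leukocyte marker genes, 7 were called higher, against 4.13% of all genes tested, with *Cd68* at a log2 fold change of 2.41 and *Itgb2* at 2.38. The summed level of the 10 was 11.8 to 17.4 FPKM under NL and 31.3 to 59.3 FPKM after LD. The mean log2(FPKM + 0.1) of the 10 rose by 1.59 (two-sided exact permutation test, p = 0.00794). Relative to that mean, *Ccl2* was higher after LD by 4.26 (standard error 0.35), *Ccl12* by 3.87 (0.43), *Ccl7* by 3.38 (0.37), *Ccl3* by 2.97 (0.31) and *Ccl4* by 2.57 (0.38) on the log2 scale. In each of the 5 genes, the LD retinas did not overlap the NL retinas on this scale (exact p = 0.00794), although *Ccl4* did with a pseudocount of 1, and of all genes tested 0.808% (0.53% of all genes without a filter) were called higher relative to the leukocyte mean. *Ccl5* was at −0.66 relative to the leukocyte mean (exact p = 0.206). For *Ccr1* the relative difference was 0.07 (exact p = 0.770) and for *Ccr2* −0.91 (exact p = 0.0317), with overlapping groups, but the values of both receptors turn with the pseudocount: with 0.01 they were 1.74 and 0.61. So no direction relative to leukocytes is given for the receptors.

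**Figure D5:**
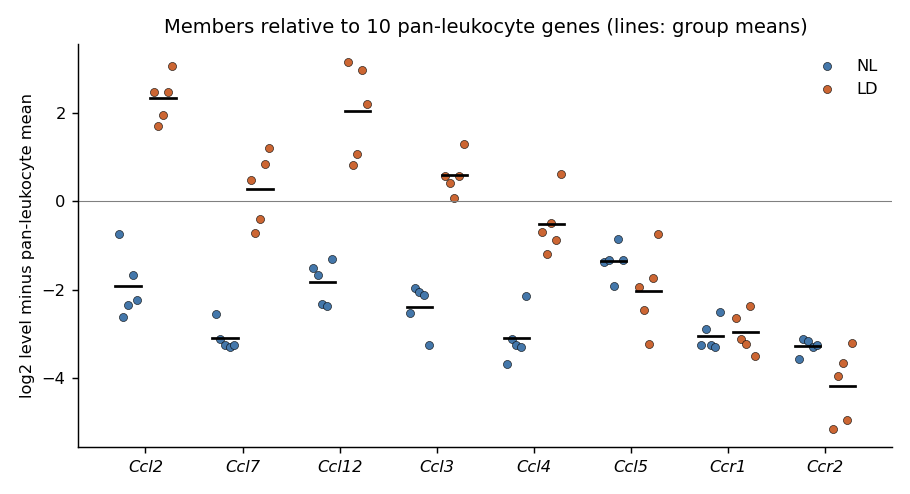
For each gene, points give the log2(FPKM + 0.1) of each retina minus the mean of 10 pan-leukocyte genes in that retina, and lines are group means. The LD points of *Ccl2*, *Ccl7*, *Ccl12*, *Ccl3* and *Ccl4* lie above their NL points, and the points of *Ccl5*, *Ccr1* and *Ccr2* overlap.

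Markers of the cell types that could carry these transcripts moved with the groups as follows, and their part in the chemokine values was not tested. Of 10 microglia markers, 4 were called higher, against 4.13% of all genes tested, led by *Fcrls* at a log2 fold change of 3.18 and *Trem2* at 1.42. The summed level of the 10 was 18.7 to 24.1 FPKM under NL and 24.8 to 58.5 FPKM after LD. At an unadjusted p under 0.05, 6 of the 10 were higher and 1 was lower, *P2ry12* (−0.74, limma adjusted p = 0.122). *P2ry12*, a receptor of resting microglia, was chosen for mention after its values were seen. Unadjusted counts, here and for the other lists, are to be read against the rate over all genes. Of the 24508 tested, 6818 had even an adjusted p under 0.05 with no minimum fold, 3543 of them higher. Of 10 monocyte and macrophage markers, only 4 passed the filter. All 4 were called higher, against 4.13% of all genes tested, among them *Lyz2* at 2.51 and *S100a4* at 1.78. With limma-voom on genes of at least 10 reads, 6 of 9 were called higher, against 4.12% of all genes in that fit. The summed level of that list was 1.57 to 3.41 FPKM in the NL retinas and 7.17 to 14.2 FPKM in the LD retinas, and *Chil3* did not exceed a few reads. *Ly6c2*, a marker of inflammatory monocytes that was chosen for mention after its values were seen, had 0 reads in all NL retinas and 6, 4, 7, 17 and 9 reads in the LD retinas.

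The remaining marker lists moved less or in the other direction. Of 10 neutrophil markers 5 were tested and limma called none, while 2 were higher at an unadjusted p under 0.05, *S100a8* (log2 fold change 1.02, adjusted p = 0.121) and *Il1r2* (0.57, adjusted p = 0.0620), and limma-voom called 0 of 6. *Ly6g*, the defining neutrophil marker, was at or under 3 reads in every retina, and the summed level was 5.24 to 7.27 FPKM under NL and 5.85 to 6.65 FPKM after LD. Of 10 T and NK cell markers 2 were tested. Against 4.13% of all genes tested, *Lck*, a T cell kinase, was called higher (1.24), while *Cd3e* and *Cd3d* were at or under 3 reads. No mast cell marker passed the filter, and their summed level was 0.243 to 1.46 FPKM under NL and 0.136 to 0.191 FPKM after LD. Of 8 Müller glia markers 1 was called, *Glul*, which was lower by limma (−2.09). That fit called 1595 genes in all, 1013 of them higher. At an unadjusted p under 0.05, 4 Müller glia genes were lower, *Glul* among them, and 1 was higher. Limma called 0 of 6 endothelial, 0 of 8 pigment epithelium and 0 of 4 red cell markers tested, and limma-voom also called none of them. At an unadjusted p under 0.05, 2 endothelial genes and 1 pigment epithelium gene were higher, and 2 pigment epithelium and 3 red cell genes were lower.

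Within the LD group the lists also differed between retinas. The summed pan-leukocyte level was 59.3, 40.0, 39.0, 54.3 and 31.3 FPKM in LD-1, LD-4, LD-6, LD-7 and LD-8, with LD-1 and LD-7 the highest pair and LD-8 the lowest, as for *Ccr1*. *Siglech*, a lectin of resting microglia chosen here after its values were seen, was at 0.958 and 0.844 FPKM in LD-1 and LD-7 and at 0.0793 to 0.186 FPKM in LD-4, LD-6 and LD-8, against 0.424 to 0.691 FPKM under NL. *Ccl12* and *Ccr1* were high in the retinas where *Siglech* was high, and *Ccr2* was low there. The summed level of all 10 microglia markers was 58.5, 43.7, 45.0, 51.4 and 24.8 FPKM in LD-1, LD-4, LD-6, LD-7 and LD-8. Each LD sum lay above the 18.7 to 24.1 FPKM of the NL retinas, also where *Siglech* lay below NL. The summed endothelial level was 50.3 and 50.9 FPKM in LD-1 and LD-7, 83.7 FPKM in both LD-4 and LD-6, and 52.9 FPKM in LD-8. The part of these levels in the order of the LD retinas was not tested.

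The genes around the 8 members on the chromosomes were examined as well. Within 100 kb of a member lie 31 other genes of the table, of which 21 had reads and 13 were tested, and limma called 3 of them higher, among them *Ccl6* and *Wfdc17*, against 4.13% of all genes tested. The median log2 fold change of the 13 was 0.23, against −0.01 over all genes tested, and 6 had an adjusted p under 0.05 in either direction, with no minimum fold. *Wfdc17* (chr11:83703991-83706268), which encodes a small secreted protein of activated macrophages, had 3, 0, 1, 0 and 0 reads under NL and 12, 5, 8, 13 and 5 after LD, or 2.38 on the log2 scale (standard error 0.41, limma adjusted p = 0.00144). Averaging the closest pairs left none of the 3 called. Of the 10 tested neighbours that are no chemokine or chemokine receptor genes, *Wfdc17* was the one called, and the median log2 fold change of the 10 was 0.17.

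Promoter windows from RefSeq (GRCm38.p6) were at hand for 4 of the 8 members, *Ccl12*, *Ccl3*, *Ccr1* and *Ccr2*. The window reaches from 250 bases before the gene start in RefSeq to 50 bases after it. That start lies outside the bounds given above for *Ccl3* and inside them for *Ccr2*, so that most of the *Ccr2* window is within the gene as listed here. In these windows 6 short motifs were searched on both strands: the kappaB and interferon response elements, TGANTCA for AP-1, GAGGAAGT for PU.1, TTCCNGGAA for STAT factors and TATAAA for the TATA box. The only match was a TATAAA in *Ccl12*, 31 to 26 bases before the start, and 13.6% of 32851 such windows hold one. The other 5 motifs occur in 1.15 to 7.81% of the windows. The 250 bases before the start of *Ccl12*, the ligand whose LD values varied most, are shown with the TATAAA in capitals.
*Ccl12* upstream (chr11:82101595-82101844, plus strand): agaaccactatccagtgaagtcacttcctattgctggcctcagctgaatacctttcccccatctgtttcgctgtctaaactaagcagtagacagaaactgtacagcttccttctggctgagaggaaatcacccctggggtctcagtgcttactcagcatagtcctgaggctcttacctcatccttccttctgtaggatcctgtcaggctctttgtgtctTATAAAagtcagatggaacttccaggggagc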

How the data were processed

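RNA-seq of 5 NL and 5 LD neural retinas was analysed from 1 table of FPKM values that the authors deposited. In the paper, TRIzol RNA was read in pairs of 150 bases and normalization was left to a sequencing company. The submitters' processing notes name TopHat2 2.0.9, Bowtie2 2.0.6 and mm8, yet 53585 of 54495 gene positions, and those of all 8 members, are those of GENCODE M21 on GRCm38, which was used here. The counting program and its strand setting are not given in the sources used here.

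FPKM times gene length gave whole reads for 100% of values (tolerance 0.01). The authors' library sizes carry a factor of 0.951 to 1.069. Intervals cover counting error only.

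LD was compared with NL by limma 3.58.1 (R 4.3.3, intensity trend) on log2(FPKM + 0.1), and single genes by exact permutation (scipy 1.17.1). The thresholds are those of the paper, which names no test for the RNA-seq data. The script was tested on simulated data, in which the changed genes had higher NL levels than the members and smaller changes than the called ligands. That test does not cover genes near 0 FPKM. The members and all gene lists were chosen with earlier results of these data known. Besides the members, the text names called genes, the 2 genes of each list with the largest change, called neighbours within 100 kb and the 5 genes most like *Ccl2*, *Ccl12*, *Ccr1* and *Ccr2*. Alternatives changed the pseudocount, filter, scaling, trend, test, thresholds, block and retinas included. The limma-voom fit on genes of at least 10 reads, the leukocyte ratio without a filter and read ratios without each retina were added after seeing the data. Some genes are not reported here.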

Additional observations from a re-analysis of the deposited data

Results flagged for a closer look

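In 5 of 42 groups of 5 values, 1 retina lay far from the others (Dixon's test), where chance gives about 2.1 for continuous, normally distributed values. In NL-1, *Ccl2* was at 0.657 FPKM while the rest of the group held 0.0414 to 0.207 FPKM, *Ccl7* was at 0.117 FPKM against 0, and *Pik3r5* was at 1.24 FPKM against 1.14 to 1.15 FPKM. In NL-8, *Ccl4* was at 0.117 FPKM against 0, and *Ccl3* was at 0 FPKM against 0.122 to 0.129 FPKM. For *Ccl3*, *Ccl4* and *Ccl7* each of these differences is 2 reads, so the rate by chance does not apply to them. The causes were not tested.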

How the results depend on the processing

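The number of members called was 5 in all alternatives except 4 with limma-voom under the filter, which lost *Ccl12* (adjusted p = 0.0112), and 6 with no filter, which added *Ccr1*. With limma-voom on genes of at least 10 reads, *Ccl12* (0.0122) was lost and *Ccr1* gained. Larger shifts concerned the other counts, which were 1595 genes called in all, 1013 of them higher, 10 family and signalling genes and 3 neighbours. With an adjusted p under 0.05 and no minimum fold they were 6818, 3543, 16 and 6. With a pseudocount of 1 they were 816, 504, 1 and 0. A filter of 1 FPKM gave 664 higher genes, 3 family genes and 0 neighbours, from fewer genes tested. With the closest pairs averaged, 6 family genes and 0 neighbours were called. The replicate numbers do not pair the retinas: the deviations of same-numbered retinas correlated at −0.0893 to 0.0656, and 1 of 4 correlated best with its own number. With the number as a block over the 8 retinas that share one, 808 genes, 550 of them higher, 4 family genes and 0 neighbours were called, and all 5 ligands stayed called.

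Relative to leukocytes, *Ccl5* turned to 0.16 with microglia markers as the reference, *Ccr1* to −0.67 with a pseudocount of 1, and *Ccr2* to 0.61 with one of 0.01. With a pseudocount of 1, *Ccl4* was at 0.53 and no longer past the fold threshold. With 1 retina left out in turn, 1379 to 1603 genes were called, 910 to 993 higher, and 5 to 5 members, 8 to 11 family genes and 3 to 4 neighbours. The 5 ligands higher relative to leukocytes stayed 5. *Ccrl2* was lost without LD-4 or NL-7 (up to 0.0107). *Ccl9* was called without LD-1 (1.17) and *Ccr6* without NL-4 (−1.08). Without the factor per retina the median of all genes moved from −0.01 to 0.11. Among the log2 fold changes of single genes, 35 values over all alternatives lost their call and 2 gained one. The causes were not tested. Depth limits *Ccr2*, *Ccr1* and all NL values of *Ccl3*, *Ccl4* and *Ccl7*, which rest on few reads.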
